A study of Rattus norvegicus with 6 samples.

Results

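The insulin-like growth factor (IGF) axis is described here in donor hearts after transplantation, as 10 genes chosen by symbol from the 22250 genes of the deposited table. They are the ligands Igf1 and Igf2, the receptors Igf1r and Insr, the receptor substrates Irs1 and Irs2, and the binding proteins Igfbp2, Igfbp3, Igfbp4 and Igfbp5. All 10 were in the table, and 9 passed the filter on low counts, Igfbp2 being the exception. The study asked why cold storage protects aged donor hearts less well than young ones, and RNA-Seq was performed on left ventricular myocardium on day 1 after transplantation. All donors were Sprague-Dawley rats labelled wild-type, and all hearts had been arrested and stored cold in University of Wisconsin solution before being transplanted heterotopically into young rats. The young group was 3 hearts from donors aged 10 weeks (animals 3, 13 and 15), and the aged group was 3 hearts from donors aged 1 year (animals 3, 4 and 7). Animal numbers count within each group. Only male rats were studied, both groups had undergone storage and transplantation, and a tissue piece of a grafted heart can also hold leukocytes of the recipient.

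IGF-I and IGF-II signal through the IGF-I receptor, a tyrosine kinase related to the insulin receptor. Both receptors phosphorylate insulin receptor substrates, which recruit PI3-kinase and activate AKT, a route that promotes cardiomyocyte growth, survival and glucose uptake. In extracellular fluid most IGF is held by binding proteins, which extend its lifetime and limit or direct its access to the receptor. Growth hormone stimulates Igf1 transcription, and Igf2 is mainly a fetal growth factor whose expression drops after birth in most rodent tissues.

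The libraries held 21457509 to 22277905 counted reads in young donor hearts and 22508040 to 24560869 in aged donor hearts. Levels are given as CPM (counts-per-million) on library sizes scaled with edgeR's TMM factors. A count of 0 allows up to 3 counts, which is 0.0985 to 0.191 CPM in these libraries, for counting error only. Young animal 15 stood apart from the other young hearts. On the first principal component, which carried 77.1% of the variance, it lay at 10.4, while young animals 3 and 13 lay at -113.7 and -120.7 and the aged hearts between 49.9 and 116.1. The tissue label was checked against 10 cardiomyocyte marker genes, whose summed level was 84479 and 93664 CPM in young animals 3 and 13, 13086 in young animal 15, 7757 and 8196 in aged animals 4 and 7, and 181.1 in aged animal 3. Cardiomyocyte markers were thus nearly absent from aged animal 3 beside the other hearts. Results are therefore also given without young animal 15, and it is stated which calls were lost without aged animal 3, by name for the genes that are named. In bulk tissue, fewer cells of a type and less RNA per cell cannot be told apart.

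Across the axis, 4 of the 9 tested members fell in aged donor hearts and 0 rose. Igf2, Igfbp5, Irs1 and Insr were the 4, so that 1 ligand, 1 receptor, 1 substrate and 1 binding protein were lower. Here "fell" and "rose" mean that a gene passed the limits the study used for aged against young hearts, a fold change over 1.5 or under 0.67 at unadjusted p under 0.05, here in edgeR's quasi-likelihood test. By the same limits, 32.2% of the 13784 genes tested were called, 13.2% higher and 19% lower. After Benjamini-Hochberg adjustment in edgeR, 0 of all genes tested had an adjusted p under 0.05 (the smallest was 0.0916), against 4731 with an unadjusted p under 0.05. By DESeq2 3592 genes had an adjusted p under 0.05, and by limma-voom with a quality weight for each heart 8416 did. Aged and young hearts were fully separated in 5 of the 9 members (Insr by a negligible gap), beside 41.6% of all genes. In all 5 (the 4 genes named and Igfbp4) the aged hearts were the lower, as in 20.6% of all genes, and in 0 the higher, as in 21% of all genes. The median log2 fold change was -0.78 over the 9 members and 0.016 over all genes tested, and under scaling by library totals alone these were -0.24 and 0.46. Without young animal 15, the same 4 members were lower and Igf1r was called higher, when 51.1% of genes were called. In that fit 6815 of 14109 genes had an edgeR adjusted p under 0.05. Young animal 15 was left out because it stood apart in these same data. The smaller adjusted p-values given below for that fit are therefore no separate support for any gene. Igf2, Igfbp5 and Irs1 kept their calls in each of the 6 fits that left out 1 heart, aged animal 3 included, and Insr did not.

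**Figure D1:**
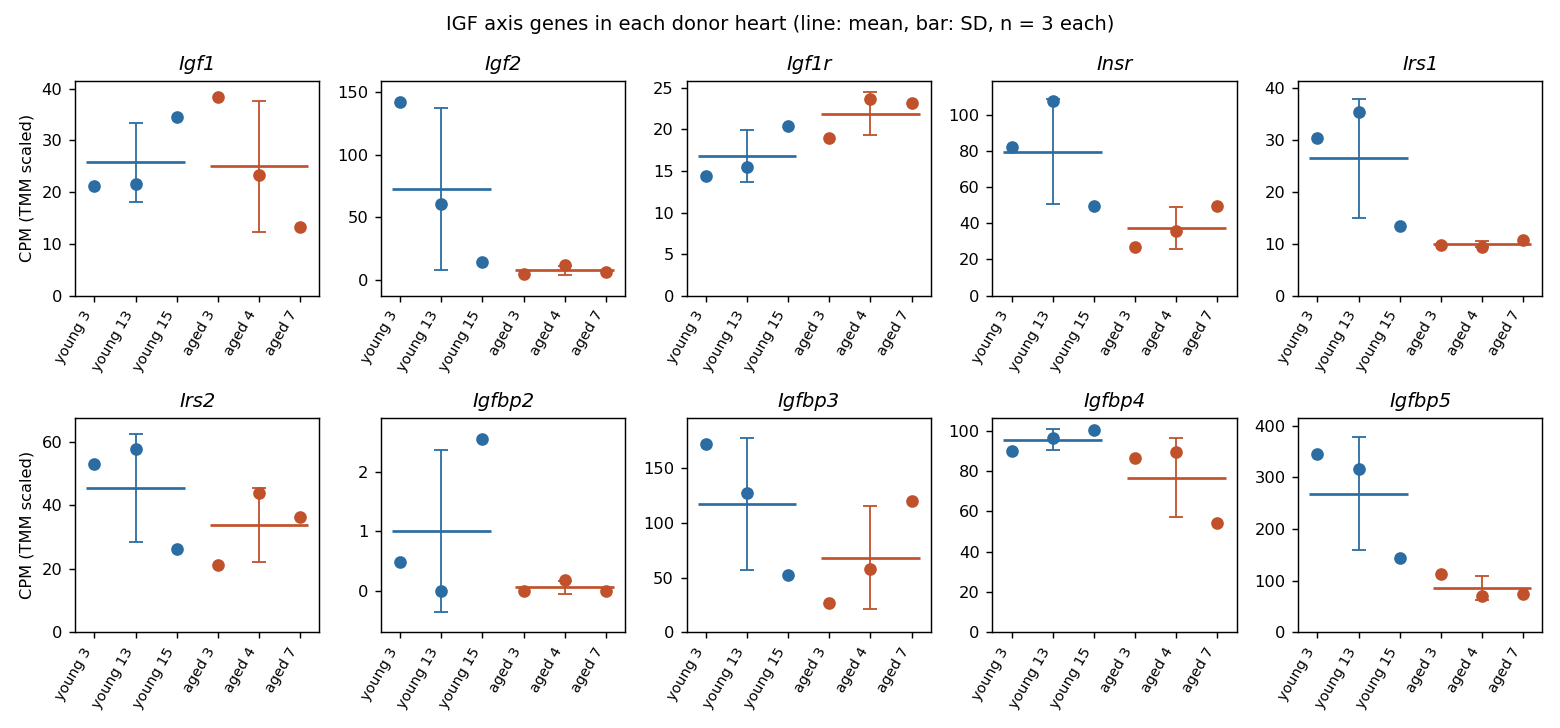
Each panel plots 1 gene, with the TMM-scaled CPM on the vertical axis and the 6 donor hearts on the horizontal axis (blue young, orange aged), the horizontal line being the group mean and the vertical bar the SD of 3 hearts. Igf2, Insr, Irs1 and Igfbp5 are lower in every aged heart than in any young heart, with young animal 15 nearest to the aged hearts in each. For Insr the gap is negligible, young animal 15 and aged animal 7 both being at 49.4 CPM.

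Of the ligands, Igf2 fell and Igf1 was not called. Igf2 (ENSRNOG00000020369, chr1:215828102-215846911 on the minus strand) was at 142.2, 60.1 and 14.3 CPM in young animals 3, 13 and 15 and at 4.6, 11.3 and 5.94 CPM in aged animals 3, 4 and 7. The 2 groups did not overlap, but young animal 15 lay only slightly above aged animal 4, and the young hearts themselves spanned a wide range. The counts behind these values were 2350, 946 and 347 reads in young and 140, 299 and 155 reads in aged hearts. Igf2 fell by 3.31 on the log2 scale, to a fold change of 0.101 (standard error 0.85, unadjusted p = 0.00714, adjusted p = 0.0916 from edgeR with Benjamini-Hochberg adjustment). It was the largest change of the 9 tested members. Without young animal 15 the log2 fold change was -3.76 and the edgeR adjusted p was 0.00346, within a range of 0.00076 to 0.277 over the alternatives tried.

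Igf1 (ENSRNOG00000004517, chr7:28412198-28486609, plus strand), the ligand that growth hormone controls, was at 21.1, 21.6 and 34.5 CPM in young animals 3, 13 and 15 and at 38.3, 23.3 and 13.3 CPM in aged animals 3, 4 and 7. The highest and the lowest heart were both aged, and the groups overlapped. Its log2 fold change was -0.043 with a 95% interval of -1.05 to 0.96, an interval that reaches about 2-fold in either direction. The sign was not determined, being positive in 3 of the 6 fits that each left out 1 heart. Aged animal 3, with the highest Igf1, also had the highest macrophage marker level of the 6 hearts (a sum of 2177 CPM over 8 genes, against 281.6 to 868.7 in young hearts) and the lowest cardiomyocyte marker level, and the part of either in the Igf1 value was not tested.

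Igf1 and Igf2 were set against each other within each heart, as the ratio of their reads per unit of gene length, which does not depend on how libraries are scaled. Which gene of such a pair is the higher does depend on the single length used for each gene. The difference in log2 ratio between aged and young hearts does not. The ratio of Igf1 to Igf2 was 0.436, 1.05 and 7.05 in young animals 3, 13 and 15, and 24.4, 6.01 and 6.55 in aged animals 3, 4 and 7. Igf2 thus exceeded Igf1 per length in young animal 3, both were alike in young animal 13, and Igf1 exceeded Igf2 in the other 4 hearts. The mean log2 ratio was 0.56 ± 2.05 (SD, n = 3) in young and 3.30 ± 1.13 (SD, n = 3) in aged hearts, a difference of 2.74 (two-sided exact permutation test, p = 0.3). The groups overlapped through young animal 15, and 3 hearts against 3 cannot give a p below 0.1.

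Of the receptors, Insr fell and Igf1r was not called. Insr (ENSRNOG00000029986, chr12:1680957-1816414, minus strand), the insulin receptor, was at 82.2, 107.5 and 49.4 CPM in young animals 3, 13 and 15 and at 26.7, 36.0 and 49.4 CPM in aged animals 3, 4 and 7. Young animal 15 and aged animal 7 were level with each other, so the separation of the groups rested on a negligible gap. The log2 fold change was -1.09 (standard error 0.357, unadjusted p = 0.0204, edgeR adjusted p = 0.103). The call was lost under scaling by library totals, at -0.58, and without young animal 13, without aged animal 3 and without aged animal 4, when the log2 fold change was -0.82, -0.89 and -1.06. Without young animal 15 it was -1.30 with an edgeR adjusted p of 0.014, in a range of 0.00458 to 0.296 over the alternatives.

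Igf1r (ENSRNOG00000014187, chr1:128924966-129206516, plus strand), the IGF-I receptor, was at 14.5, 15.5 and 20.4 CPM in young animals 3, 13 and 15 and at 18.9, 23.6 and 23.2 CPM in aged animals 3, 4 and 7. Only young animal 15 and aged animal 3 crossed between the groups. Its log2 fold change was 0.38 with a 95% interval of -0.14 to 0.91 (unadjusted p = 0.122, edgeR adjusted p = 0.235). Without young animal 15 it was 0.59, just past the fold change limit, with an edgeR adjusted p of 0.0405, in a range of 0.0093 to 0.538 over the alternatives. Igf1r was the only tested member whose log2 fold change was positive in all of the fits tried.

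Within each heart, the ratio of Igf1r to Insr per length was 0.299, 0.246 and 0.701 in young animals 3, 13 and 15, and 1.20, 1.11 and 0.799 in aged animals 3, 4 and 7. By the gene lengths used, Insr exceeded Igf1r in all 3 young hearts, and the 2 receptors were near parity in the aged hearts. The mean log2 ratio was -1.43 ± 0.803 (SD, n = 3) in young and 0.034 ± 0.314 (SD, n = 3) in aged hearts. Each aged heart was above each young heart, with a difference of 1.46 on the log2 scale (two-sided exact permutation test, p = 0.1, the smallest possible, and 0.15 after Benjamini-Hochberg adjustment over the 3 ratios). The difference was 1.92 without young animal 15.

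Of the substrates, Irs1 fell and Irs2 was not called. Irs1 (ENSRNOG00000014597, chr9:88033668-88086488, minus strand), an adaptor that links both receptors to PI3-kinase, was at 30.5, 35.4 and 13.5 CPM in young animals 3, 13 and 15 and at 9.82, 9.48 and 10.7 CPM in aged animals 3, 4 and 7. The aged hearts were close to each other, and young animal 15 was nearer to them than to the other young hearts. Irs1 fell by 1.40 on the log2 scale (standard error 0.371, unadjusted p = 0.00818, edgeR adjusted p = 0.0916). Without young animal 15 the log2 fold change was -1.68 and the edgeR adjusted p was 0.00162, in a range of 8.14e-04 to 0.277 over the alternatives.

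Irs2 (ENSRNOG00000023509, chr16:83824430-83848684, plus strand), the related substrate, was at 52.8, 57.7 and 26.1 CPM in young animals 3, 13 and 15 and at 21.1, 43.9 and 36.3 CPM in aged animals 3, 4 and 7. Here the groups overlapped, since young animal 15 was below aged animals 4 and 7. The log2 fold change was -0.43 with a 95% interval of -1.37 to 0.51. The ratio of Irs2 to Irs1 per length was 1.43, 1.34 and 1.59 in the young hearts and 1.76, 3.81 and 2.79 in aged animals 3, 4 and 7, so Irs2 was the higher of the 2 in all 6 hearts and more so in the aged. The mean log2 ratio was 0.53 ± 0.125 (SD, n = 3) in young and 1.41 ± 0.558 (SD, n = 3) in aged hearts, a difference of 0.87 (two-sided exact permutation test, p = 0.1, the smallest possible, 0.15 after Benjamini-Hochberg adjustment over the 3 ratios). In this ratio young animal 15 lay close to the other young hearts.

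**Figure D2:**
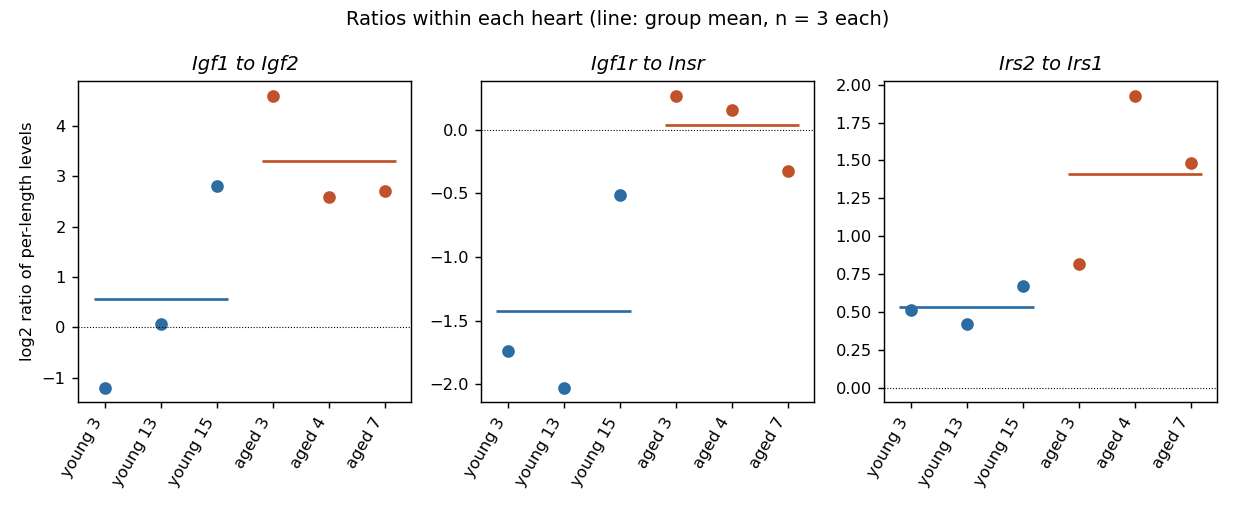
The vertical axis is the log2 ratio of per-length levels of the 2 genes named above each panel, the points are the 6 hearts (blue young, orange aged) and the lines are group means of 3 hearts. Aged hearts lie above young hearts for Igf1r to Insr and for Irs2 to Irs1, while young animal 15 lies among the aged hearts for Igf1 to Igf2.

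Of the binding proteins, Igfbp5 fell, Igfbp3 and Igfbp4 were not called, and Igfbp2 was too low to be tested across genes. Igfbp5 (ENSRNOG00000017206, chr9:80150211-80167033, minus strand), which binds IGFs in the matrix, was at 346.3, 316 and 144.4 CPM in young animals 3, 13 and 15 and at 112.9, 69.7 and 73.9 CPM in aged animals 3, 4 and 7. The groups did not overlap, and young animal 15 was again nearest to the aged hearts. Igfbp5 fell by 1.65 on the log2 scale (standard error 0.397, unadjusted p = 0.00516, edgeR adjusted p = 0.0916). Without young animal 15 the log2 fold change was -1.91 with an edgeR adjusted p of 0.00322, in a range of 4.33e-04 to 0.277 over the alternatives.

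Igfbp3 (ENSRNOG00000061910, chr14:87457647-87465374, minus strand), the main IGF carrier of the circulation, was at 171.9, 127.0 and 52.5 CPM in young animals 3, 13 and 15 and at 27.3, 57.7 and 120.3 CPM in aged animals 3, 4 and 7. It varied more within each group than between them. Its log2 fold change was -0.78 with a 95% interval of -2.30 to 0.75, and it ran from -1.45 without aged animal 7 to -0.39 without aged animal 3. Igfbp4 (ENSRNOG00000010635, chr10:86950557-86962578, plus strand), which inhibits IGF action, was at 90.1, 96.3 and 100.5 CPM in young animals 3, 13 and 15 and at 86.7, 89.3 and 54.2 CPM in aged animals 3, 4 and 7. The groups did not overlap, but 2 of the aged hearts were within a few CPM of young animal 3, and the log2 fold change was -0.32 with a 95% interval of -0.88 to 0.25.

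Igfbp2 (ENSRNOG00000016957, chr9:80118029-80144789, plus strand), the neighbour of Igfbp5 on chromosome 9, had 8 reads in young animal 3, 0 in young animal 13 and 62 in young animal 15, while the aged hearts had 0, 5 and 0 reads. Most of its reads came from young animal 15, and it was not tested in edgeR. The groups overlapped (two-sided exact permutation test, p = 0.4). No other gene of the table overlapped any of the 10 members.

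Per unit of gene length (CPM per kilobase), Igfbp3, Igfbp5 and Igfbp4 led in young hearts at 48.7 ± 25.1, 45.8 ± 18.6 and 44.0 ± 2.40 (SD, n = 3 each), and these 3 did not differ beyond their spread. Igf1, Igf2 and Insr followed at 13.4 ± 3.95, 12.8 ± 11.5 and 11.4 ± 4.18 (SD, n = 3 each), also within their spread. The order of genes on this scale rests on the single length used for each. Irs2, Irs1 and Igf1r were at 7.0 ± 2.61, 4.94 ± 2.15 and 4.09 ± 0.768, and Igfbp2 was last at 0.793 ± 1.06 (SD, n = 3 each). In aged hearts Igfbp4 led at 35.3 ± 8.99, followed by Igfbp3 at 28.4 ± 19.7, Igfbp5 at 14.6 ± 4.06 and Igf1 at 13 ± 6.55 (SD, n = 3 each). Insr, Igf1r and Irs2 were level at 5.36 ± 1.64, 5.34 ± 0.636 and 5.19 ± 1.79, whereas Irs1 and Igf2 were at 1.87 ± 0.117 and 1.29 ± 0.632 and Igfbp2 at 0.0494 ± 0.0855 (SD, n = 3 each). In aged hearts the Igf2 mean was thus below those of both receptors and both substrates. In young hearts the Igf2 mean rested on young animal 3, with Igf2 at 25.2, 10.7 and 2.54 and Insr at 11.8, 15.4 and 7.09 in young animals 3, 13 and 15. Igfbp5 and Igf1 in aged hearts, and Irs1 and Igf2 there, did not differ beyond their spread.

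The 4 binding protein genes together summed to 172.3, 150.9 and 94.6 in young animals 3, 13 and 15 and to 70.4, 77.1 and 87.5 in aged animals 3, 4 and 7 on the same per-length scale. All aged sums were below all young sums. Igfbp5 made up 34.3%, 35.7% and 26% of the sum in young animals 3, 13 and 15, and 27.3%, 15.4% and 14.4% in aged animals 3, 4 and 7. Igfbp4 made up 24.0%, 29.3% and 48.8% in those young hearts, and 56.6%, 53.3% and 28.5% in the aged, where aged animal 7 had Igfbp3 in first place at 57.1%.

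**Figure D3:**
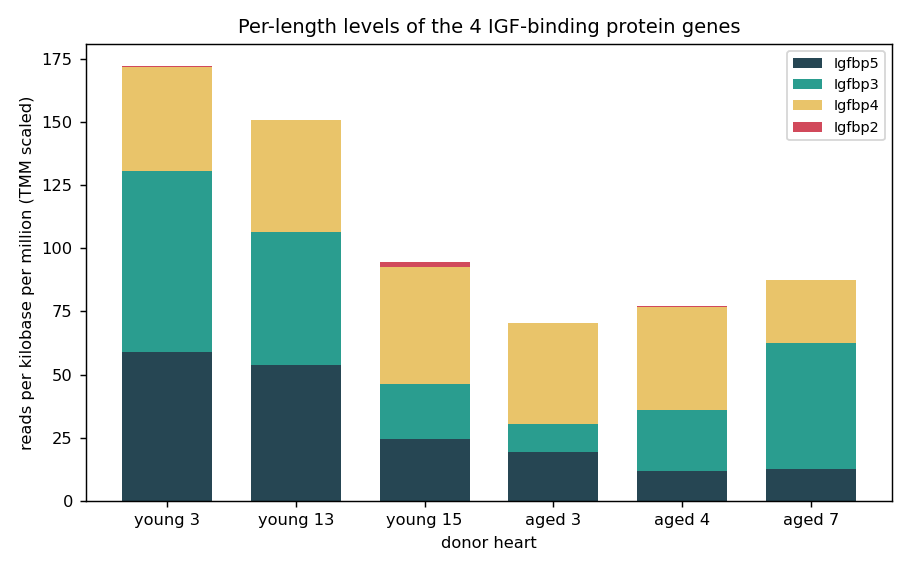
Each bar is 1 donor heart, and its segments are the per-length levels (CPM per kilobase, TMM scaled) of Igfbp5, Igfbp3, Igfbp4 and Igfbp2. The sums run from 94.6 to 172.3 in young and from 70.4 to 87.5 in aged hearts, and the Igfbp5 segment is smaller in each aged heart.

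**Figure D4:**
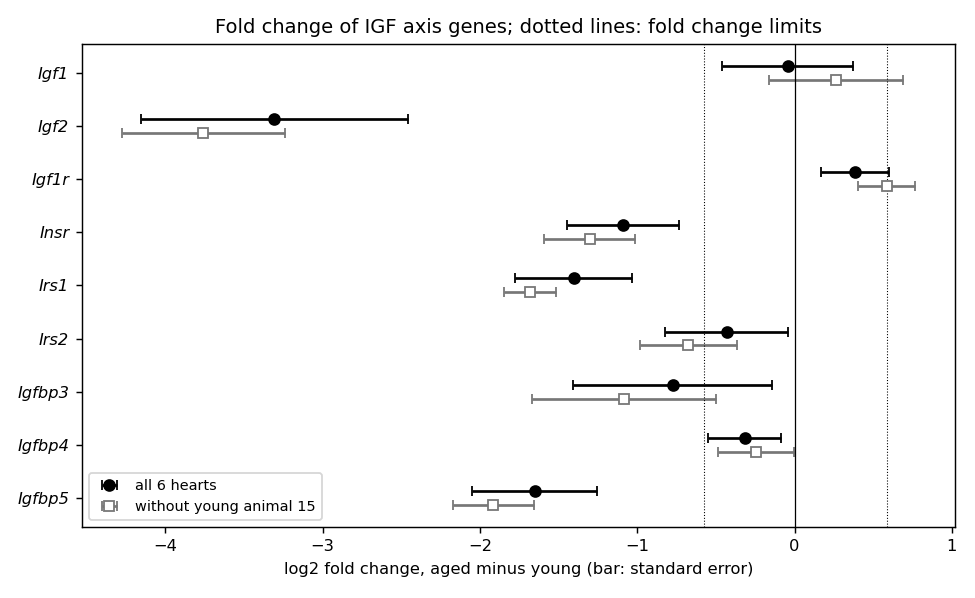
The horizontal axis is the log2 fold change of aged minus young hearts from edgeR for the 9 tested members, with standard errors, for all 6 hearts (filled circles) and without young animal 15 (open squares). Igf2, Insr, Irs1 and Igfbp5 lie beyond the lower fold change limit in both fits, Igfbp3 lies there too without passing the p limit, and Igf1 changes sign.

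The start sites of the members were searched for short motifs in the RefSeq promoter table of build GRCr8 (250 bases before to 50 after each start), where 9 of the 10 members had an entry. Irs2 had none, and Igf2 had 2 start sites. The GC box GGGCGG, the motif that Sp1 binds, was counted on both strands because the study examined this factor. It occurred in 5 of the 10 member promoters, against 33.1% of all 33469 promoters in the table. These 5 were both Igf2 promoters and those of Irs1, of Igf1r, which was not called, and of Igfbp2, which was not tested. The FoxO core GTAAACA, on both strands, occurred in 1 member promoter, that of Insr, against 3.78% of all promoters. Insr is a gene described as activated by FoxO factors. The motifs were chosen after the promoters had been read, so the shares of all promoters given here are no test of the matches. The TATA box TATAAA occurred in the Igfbp4 promoter alone of the members, against 14.2% of all. The windows of 30 bases below show a motif for each of the members that fell and held one, with the motif in capitals, at chr12:6128885-6128914, chr9:91053997-91054026 and chr1:207250587-207250616, all on the minus strand and written 5′ to 3′. A match in letters is not a measured binding site.
Insr: acgggccgcgtTGTTTACtggccggagtcg
Irs1: ggacgcgtcctcGGGCGGcagcagcagcag
Igf2: gaaggagggaggGGGCGGgtgcaaaggggg
The Insr motif reads in the opposite direction to the gene and begins at position -100 from the start site, the Irs1 box shown begins at position -55 and is 1 of 3 in that promoter, and the Igf2 box begins at position -129 of 1 of its 2 start sites. The Igfbp5 promoter held none of the 3 motifs.

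Other genes of the pathway were read from 4 lists holding 62 genes, of which 60 were in the table and 53 passed the filter. Of these 53, 7 rose and 16 fell by the same limits, which is 13.2% and 30.2%, beside 13.2% and 19% of all genes. The median log2 fold change of the 53 was -0.25. All 7 and all 16 were called in the same direction without young animal 15. Scaling by library totals alone, which moved the median of all genes to 0.46, changed the split to 11 higher and 6 lower. These are 20.8% and 11.3% of the 53, beside 22.8% and 10.5% of all genes under that scaling, so the larger share of lower pathway genes was not seen there. The 4 members and 23 pathway genes called all kept their sign under it, and 15 of these 27 kept their call. Igfbp6, Igf2bp3, Ghr, Socs2, Cish, Sh2b2, Grb10, Ptpn1, Trib3 and Slc2a4 kept their calls in each of the 6 fits that left out 1 heart. Without young animals 3 and 13, each left out alone, 3 genes rose and 8 and 7 fell. Without aged animal 3 these counts were 4 and 9, and without aged animal 4 they were 5 and 10. Of all genes, 17.3% and 17.7% were called without young animals 3 and 13, and 22.2% and 25.3% without aged animals 3 and 4. Without young animal 15 the counts were 11 and 21. These are 20.8% and 39.6% of the 53, beside 26.9% higher and 24.2% lower of all genes in that fit.

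Among the other ligands, receptors and binding proteins, 1 of 10 tested genes rose and 3 fell (2 and 2 under library totals). Of all genes, 13.2% rose and 19% fell, or 22.8% and 10.5% under library totals. Igfbp6, a binding protein with a preference for IGF-II, averaged 16.2 ± 3.46 CPM in young and 5.20 ± 2.48 CPM in aged hearts (SD, n = 3 each) and fell by 1.64 on the log2 scale, with no overlap. Igf2bp3, an RNA-binding protein that binds Igf2 mRNA, was at 3.93, 3.62 and 5.62 CPM in young animals 3, 13 and 15 and at 0.985, 0.455 and 0.881 CPM in aged animals 3, 4 and 7. It fell by 2.50 on the log2 scale (unadjusted p = 7.48e-04, edgeR adjusted p = 0.0916), and unlike Igf2 it was highest in young animal 15. Stc2, an inhibitor of the proteases that cleave binding proteins, fell by 1.74 although young animal 15 lay among the aged hearts. Htra1, a secreted protease that can cleave binding proteins, rose from 176.6 ± 74.9 to 309.5 ± 13.9 CPM (SD, n = 3 each). Without aged animal 3 the calls of Stc2 and Htra1 were lost, at log2 fold changes of -1.45 and 0.85, and that of Stc2 also under library totals, at -1.17. Both calls were also lost without young animal 3, without young animal 13 and without aged animal 4. That of Htra1 was lost without aged animal 7 as well. Igf2r, which clears IGF-II, had the most reads of this list and a log2 fold change of -0.37 (unadjusted p = 0.289 from edgeR). The insulin genes Ins1 and Ins2 had 0 reads in every heart, which allows up to the 3-count floor given above, a limit for counting error only.

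Of the 6 genes of growth hormone input, 3 fell and 1 rose, beside 19% and 13.2% of all genes. Ghr, the growth hormone receptor, was at 221.4, 222.1 and 67.4 CPM in young animals 3, 13 and 15 and at 23.8, 33.7 and 38.7 CPM in aged animals 3, 4 and 7. It fell by 2.41 on the log2 scale (unadjusted p = 0.00239, edgeR adjusted p = 0.0916). Cish and Socs2, feedback inhibitors that STAT5 induces, fell by 2.07 and 2.21, with no overlap between the groups in either. Jak2, the kinase bound to the receptor, rose from 64.8 ± 53.9 to 173.3 ± 41.0 CPM (SD, n = 3 each), with young animal 15 at 126.8 CPM beside aged animal 4 at 130.6. The call of Jak2 was lost under library totals, at a log2 fold change of 1.70, and in 5 of the 6 fits that left out 1 heart, being 1.41 without aged animal 3. The other calls of this list were kept in both. Stat5a and Stat5b, the transcription factors in between, had log2 fold changes of 0.44 and -0.22 and were not called. Igf1, the best known target of this route, was not called either, as given above.

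Among the adaptors and brakes next to the receptors, 4 of 11 rose and 3 fell (5 and 0 under library totals). Beside these, 13.2% of all genes rose and 19% fell (22.8% and 10.5% under library totals). Brakes were found on both sides. Grb14 and Grb10, adaptors that inhibit insulin and IGF-I receptor kinases, fell by 2.52 and 0.83. Grb14 was at 168.7, 168.7 and 79.2 CPM in young animals 3, 13 and 15 and at 2.0, 47.2 and 23.3 CPM in aged animals 3, 4 and 7. Gab1, a docking protein, fell by 0.94. Ptpn1, the phosphatase that switches the insulin receptor off, rose by a log2 fold change of 0.93. Trib3, a stress-induced pseudokinase reported to restrain AKT, averaged 1.97 ± 0.419 CPM in young and 14.2 ± 8.13 CPM in aged hearts (SD, n = 3 each). It rose, with a log2 fold change of 2.84 (unadjusted p = 8.22e-04, edgeR adjusted p = 0.0916), and here young animal 15, at 1.53 CPM, was the lowest of all hearts. The adaptor Sh2b2 rose by a log2 fold change of 2.20, and 1 further gene rose. In the fits that left out 1 heart, aged animal 3 included, the call of that further gene was kept only without young animal 15. Under library totals Grb14, Grb10 and Gab1 lost their calls, at log2 fold changes of -2.04, -0.43 and -0.40, and without aged animal 3 all 3 were kept. The calls of Grb14 and Gab1 were lost without young animal 3, without young animal 13 and without aged animal 7. That of Gab1 was also lost without aged animal 4.

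In the PI3-kinase, AKT, mTOR and FoxO list, 7 of 26 tested genes fell, 1 rose and 18 were not called (1 fell and 3 rose under library totals). The shares of all genes were 19% lower and 13.2% higher (10.5% and 22.8% under library totals). The largest change was that of Slc2a4, which encodes the insulin-responsive glucose transporter GLUT4 of muscle and fat. It was at 508 and 552.7 CPM in young animals 3 and 13, at 11.4 in young animal 15, and at 1.81, 4.59 and 4.67 CPM in aged animals 3, 4 and 7. Slc2a4 fell by 6.60 on the log2 scale (unadjusted p = 0.00336, edgeR adjusted p = 0.0916). Akt2, the AKT isoform of insulin action, fell by 0.91 with no overlap between the groups. The PI3-kinase regulatory subunit Pik3r1 fell by 0.90 and the transcription factors Foxo1 and Foxo4 by 0.84 and 0.88, with overlapping groups in all 3. A further 2 genes fell, and both of these calls were lost without aged animal 3 and without young animal 13. Under library totals Akt2, Pik3r1, Foxo1 and Foxo4 were no longer called, at -0.40, -0.37, -0.30 and -0.37. Without aged animal 3 they were not called either, at -0.80, -0.77, -0.88 and -0.66. These calls were also lost without young animal 3 and without young animal 13. Without aged animal 4 those of Pik3r1, Foxo1 and Foxo4 were lost, and without aged animal 7 those of Akt2 and Foxo1. Akt1 had a log2 fold change of -0.39 and was not called. Pik3cb, a catalytic subunit, rose by a log2 fold change of 1.08, a call lost without aged animal 3, at 0.78. It was also lost without young animal 3 and without young animal 13. Mtor, Tsc2, Rheb and both Gsk3 genes were among those not called, with log2 fold changes from -0.25 to 0.065.

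Marker genes of several cell types were read by the same limits, by which 13.2% of all genes rose and 19% fell. Of the 10 cardiomyocyte markers tested, 4 fell and 0 rose (median log2 fold change -3.15), and all 8 neutrophil markers tested rose, from summed levels of 16.0 to 135.5 CPM in young to 346.8 to 1313 CPM in aged hearts. The neutrophil granule genes Mpo and Ltf were near or at 0, with 5 reads and 0 reads in all hearts together. Of the 8 macrophage markers 5 rose, with sums of 281.6 to 868.7 CPM in young and 890.7 to 2177 in aged hearts. Fibroblast markers fell in 2 of 7, endothelial markers in 1 of 7 and mural cell markers in 1 of 8, and 0 of 4 markers of T and NK cells were called. In lists this short, the fibroblast, endothelial and mural counts cannot be told apart from the share of all genes. Under library totals 0 of the fibroblast markers fell, and 1 endothelial and 2 mural markers rose. Of all genes under that scaling, 10.5% fell and 22.8% rose. Mitochondrially encoded genes took 11.9% to 21.7% of reads in young and 6.56% to 10.3% in aged hearts. The members that fell were, like the cardiomyocyte markers, highest in young animals 3 and 13, and the part of cell composition in them was not tested.

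The profiles of Igf1, Igf1r and Insr over the 6 hearts were compared with those of the 12957 other tested genes at a mean of at least 1 CPM, as the root mean square difference of log2 CPM after centring each gene. Nearest to Igf1 were Slc16a7, Dlg2 and Layn, at 0.125, 0.163 and 0.174. Nearest to Igf1r were Prep, Rabep2 and Slc35b1, at 0.0402, 0.0442 and 0.0481, and nearest to Insr were Me1, Opa1 and Foxo4, at 0.103, 0.11 and 0.116. The SD of the member itself over the hearts was 0.55 for Igf1, 0.29 for Igf1r and 0.74 for Insr, so a smaller distance for Igf1r goes with its smaller range.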

How the data were processed

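RNA-Seq was performed on poly(A)-selected RNA in libraries of 3 young and 3 aged donor hearts. The authors deposited, per gene and heart, a raw read count without normalization and an FPKM value (count over gene length and library total). The submitters' processing notes list HISAT2 2.0.5, StringTie 1.3.3b, featureCounts 1.5.0-p3, DESeq2 1.16.1, GATK 3.7 and the build Rnor_6.0, to which the coordinates of the table are credited. Use of strand is not given in the sources used here. FPKM was not used for tests.

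The tests used edgeR 4.0.16 under R 4.3.3 (filterByExpr, TMM, quasi-likelihood test, no covariates), fitted over the whole table, with Benjamini-Hochberg adjustment over 13784 genes. Standard errors were taken as the fold change (log2) divided by the root of F. Log2 CPM used a prior count of 2, and ratios a pseudocount of 0.5 reads. DESeq2 1.42.0 and limma 3.58.1 served as alternatives, the latter always as limma-voom with a quality weight for each heart. The count tests were also run on simulated counts, in which every gene had the same fixed spread between hearts. Those counts held no heart that stood apart from its group, so they do not show how the tests behave with such hearts. Members, lists and tests were chosen with earlier results of these data known, and the motifs after the promoters had been read. All 10 members were to be named, with the pathway genes past the limits, and the 3 nearest profiles of Igf1, Igf1r and Insr. Called pathway genes beyond the 20 largest changes were only counted, and the uncalled pathway genes named were chosen after their values were seen. A pathway gene that was counted is not reported by name here. No source used here says how the hearts relate to each other beyond their sample numbers, and p-values measure the spread between these hearts.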

Additional observations from a re-analysis of the deposited data

How the results depend on the processing

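No paired analysis was possible because the groups share 1 animal number, which marks different rats. Of the members, 4 were lower under DESeq2's size factors, both other filters and DESeq2's Wald test. There were 6 lower under limma-voom with quality weights, where 54.4% of all genes were called, and 3 under library totals. With an adjusted p under 0.1 there were 3, with one under 0.05 there were 0, and 3 to 4 were lower when each heart was left out. The count of higher members, 0, became 1 (Igf1r) under limma-voom and ran from 0 to 1 over the hearts left out. Of the pathway genes, 7 higher became 11 under library totals and under limma-voom, 3 with an adjusted p under 0.1 and 0 with one under 0.05, and ran from 3 (without young animal 3 or 13) to 11 (without young animal 15). The 16 lower became 6 under library totals, 23 under limma-voom, 7 and 0 with those adjusted p limits, and ran from 7 (without young animal 13) to 21. Of all genes, 32.2% were called in the main fit, 33.3% under library totals and 54.4% under limma-voom (3689 higher and 3815 lower of 13784). With an adjusted p under 0.1 the share was 18.7%, and without young animal 15 it was 51.1%. Igf1 reversed to 0.36 under library totals and ran from -0.49 to 0.27 over the hearts left out, and Irs2 and Igfbp4 reversed under library totals, to 0.081 and 0.12. That scaling moved the median log2 fold change of all genes tested from 0.016 to 0.46. The cause of this shift was not tested. The 3 ratios kept their direction in every alternative, from 1.86 to 3.86 for Igf1 to Igf2 and 0.62 to 1.17 for Irs2 to Irs1 over the hearts left out. Depth limits Igfbp2, which had 0 reads in 3 of the 6 hearts.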
